A study of Mus musculus with 2 samples.

Results

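Ccl1, Ccl3, Ccl4, Ccl5 and Xcl1 are chemokine genes that activated T cells are known to transcribe, and their UMIs (unique molecular identifiers, 1 per captured transcript molecule) were followed in donor T cells after allogeneic hematopoietic cell transplantation. They were taken by gene symbol from the 32285 genes of the count tables, and all 5 were detected in both libraries. The study transplanted lethally irradiated BALB/c mice with T cell–depleted bone marrow and splenic T cells from WT C57BL/6 donors, a fully mismatched model of acute graft-versus-host disease (aGvHD), and sorted CD45+H2Kb+H2Kd-TCRβ+ donor T cells from recipient spleens. There were 2 libraries, 1 from day +7 and 1 from day +14, and cells of several spleens were pooled, so no spread between mice can be seen. The day was taken from the sample titles, because the protocol text of both samples describes a day +7 sort. The labels give the same donor T cell dose for both days, while the study's text is not uniform on it, and they give no age. Both groups shared irradiation, bone marrow and donor T cells, and no library of untransplanted or syngeneic T cells was analysed here.

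With 1 library per day, no test between days was possible. Intervals are 95% intervals that cover counting error only: exact Poisson for levels in CPM (UMIs of a gene per 1000000 UMIs), exact conditional binomial for log2 ratios, and Clopper-Pearson for shares of cells. Cells of 1 library are not replicates. The 7179 cells of day +7 and 7794 cells of day +14 that had 500 to 7500 genes and at most 15% mitochondrial UMIs held 86745047 and 83808218 UMIs, with medians of 9210 and 8144 UMIs per cell. All 6 genes of the T cell list (Cd3d, Cd3e, Cd3g, Trac, Trbc1, Trbc2) were detected, at 5687 CPM summed on day +7 and 7521 CPM on day +14. CD8-gate cells (a UMI of Cd8a or Cd8b1, none of Cd4) made up 81.8% and 76.2% of the kept cells, and CD4-gate cells (a UMI of Cd4, none of Cd8a or Cd8b1) made up 6.56% and 9.05%. Cells with UMIs of both coreceptors were 2.80% and 6.49%, with higher medians of 17100 and 13679 UMIs, and cells in an erythroid, granulocyte or macrophage gate, kept out of both T cell gates, were 4.35% and 2.64%. The libraries shared 20 barcodes, of which 17 were kept in each.

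Chemokines are small secreted proteins that direct leukocytes along a gradient through G protein–coupled receptors. Ccl3 (MIP-1α), Ccl4 (MIP-1β) and Ccl5 (RANTES) attract monocytes, macrophages and activated T cells, and Ccl3 and Ccl5 bind Ccr1, a receptor carried by myeloid cells. Ccl1 (TCA-3) binds Ccr8, which is found on regulatory and Th2 cells, and Xcl1 (lymphotactin) binds Xcr1, which marks cross-presenting dendritic cells. T cell receptor signaling through NFAT is a textbook route to Ccl3, Ccl4, Xcl1 and Ccl1 transcription, whereas Ccl5 is known as a late gene that accumulates as effector and memory cells mature. In aGvHD, donor T cell chemokines are known for recruiting further leukocytes into target tissue.

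Ccl1 (ENSMUSG00000020702), Ccl3 (ENSMUSG00000000982), Ccl4 (ENSMUSG00000018930) and Ccl5 (ENSMUSG00000035042) lie on chromosome 11, and Xcl1 (ENSMUSG00000026573) lies on chromosome 1. In the GENCODE annotation of GRCm38, Ccl3 spans chr11:83647844-83649355 on the minus strand and Ccl4 spans chr11:83662584-83664683 on the plus strand, with 13228 bases between them. Ccl5 (chr11:83525778-83530518, minus strand) is 117325 bases from Ccl3. Ccl1 is annotated at chr11:82176657-82305690 and Xcl1 at chr1:164931644-164935527, both on the minus strand. The upstream sequence of Ccl1 printed below follows RefSeq, which places the start of Ccl1 elsewhere. That sequence therefore lies inside the GENCODE span of Ccl1. The RefSeq table (GRCm38.p6) held the upstream sequence of 3 of the 5 genes. These are printed because Ccl1 and Xcl1 had UMIs in the fewest cells, and Ccl3 and Xcl1, like Ccl4, were ordered by the early activation genes, as described further on. Each run is the 250 bases before the RefSeq start, 5′ to 3′ along the gene, and capitals mark matches on either strand to GGAAA, the core of NFAT sites, and TGTGGT, a Runx motif.
Ccl1 promoter, chr11:82179813-82180062: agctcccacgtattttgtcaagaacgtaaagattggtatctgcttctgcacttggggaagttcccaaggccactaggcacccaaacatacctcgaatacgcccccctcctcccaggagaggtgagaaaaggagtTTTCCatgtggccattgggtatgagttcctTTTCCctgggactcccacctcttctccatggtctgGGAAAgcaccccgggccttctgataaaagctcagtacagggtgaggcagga
Ccl3 promoter, chr11:83649379-83649628: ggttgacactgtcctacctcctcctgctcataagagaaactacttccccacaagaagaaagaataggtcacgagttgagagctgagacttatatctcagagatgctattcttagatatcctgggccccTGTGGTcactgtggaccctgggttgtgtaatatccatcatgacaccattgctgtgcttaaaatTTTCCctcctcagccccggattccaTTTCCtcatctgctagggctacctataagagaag
Xcl1 promoter, chr1:164935523-164935772: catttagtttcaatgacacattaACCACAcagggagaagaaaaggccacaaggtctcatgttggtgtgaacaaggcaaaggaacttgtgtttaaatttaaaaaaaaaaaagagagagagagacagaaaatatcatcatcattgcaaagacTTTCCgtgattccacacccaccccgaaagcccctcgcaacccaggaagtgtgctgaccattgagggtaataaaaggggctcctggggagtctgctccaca
The core GGAAA matched at 3 places in the Ccl1 run, 2 in the Ccl3 run and 1 in the Xcl1 run, and it is a frequent string, found in 55.6% of 32817 promoter windows of the same length. TGTGGT matched once in Ccl3 and once in Xcl1 and is found in 14.0% of windows. The AP-1 motif TGANTCA (6.75% of windows) and TATAAA (12.4%) had no match in the 3 runs, which says only that these letters are not in these windows. The matches of different motifs did not overlap.

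Ccl3, Ccl4, Ccl5 and Xcl1 were higher on day +14 and Ccl1 was lower. Ccl3 was at 93.8 CPM (interval 91.8 to 95.9) on day +7 and 276 CPM (273 to 280) on day +14, a log2 ratio of 1.56 (1.52 to 1.59). Ccl4 went from 235 CPM (232 to 238) to 455 CPM (451 to 460), a log2 ratio of 0.95 (0.93 to 0.98). Ccl5 was the gene of the group with most UMIs and went from 2205 CPM (2196 to 2215) to 5949 CPM (5933 to 5966), a log2 ratio of 1.43 (1.42 to 1.44). By UMIs, with no correction for length, Ccl5 moved from rank 90 to rank 10 among all genes. Xcl1 had the largest ratio of the 5, from 34.3 CPM (33.1 to 35.6) to 127 CPM (124 to 129), a log2 ratio of 1.88 (1.83 to 1.94). Ccl1 went the other way, from 43.0 CPM (41.6 to 44.4) to 21.8 CPM (20.8 to 22.8), a log2 ratio of −0.98 (−1.06 to −0.90). The ratio of Ccl1 came to −0.42 when every cell was thinned to 4000 UMIs and to −0.44 as a mean over cells of CPM per cell, a smaller difference between days in the same direction.

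On log2(CPM + 1), Ccl3 (1.55), Ccl5 (1.43) and Xcl1 (1.85) were past a 2-fold ratio upward, 3 of 5 genes, while 1.85% of the 6919 genes averaging 10 CPM or more over the libraries were. Downward the share was 1.26% and in either direction 3.11%, and the median log2 ratio of all tested genes was 0.18. Ccl4 (0.95) and Ccl1 (−0.95) stayed just inside the limit. Ordered from the highest ratio, Xcl1 was 30th, Ccl3 40th, Ccl5 49th, Ccl4 148th and Ccl1 6820th of the 6919 genes. Scaling by the median ratio of genes lowered every log2 ratio by 0.21, which left the signs as they were and put Ccl1 past the limit downward, at −1.16 on log2(CPM + 1). Over all genes it turned 128 higher and 87 lower into 80 higher and 124 lower. The 5 genes were proposed with the results of these data in view, so these counts describe them and are no support for a shared change.

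**Figure D1:**
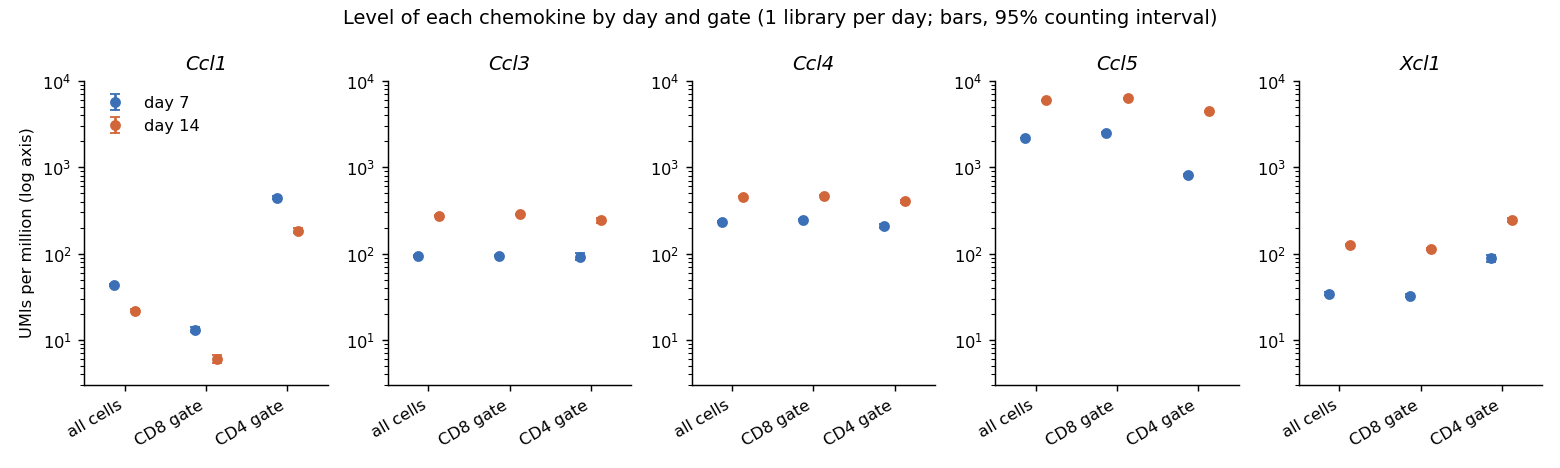
Level of each chemokine in CPM (log axis) over all kept cells, CD8-gate cells and CD4-gate cells, with day +7 in blue, day +14 in orange and bars for the 95% counting interval. Ccl5 in CD4-gate cells went from 819 to 4492 CPM, the largest ratio between days in the plot, and Ccl1 is the gene whose orange points lie below the blue ones.

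In CPM, the CD8 and CD4 gates differed most in Ccl1, Xcl1 and Ccl5. Ccl1 was at 13.1 CPM in CD8-gate cells and 443 CPM in CD4-gate cells on day +7, 33.7-fold higher in the CD4 gate. On day +14 the levels were 6.05 and 184 CPM, a 30.4-fold difference in the same direction. CD4-gate cells, 6.56% and 9.05% of all cells, therefore held 57.3% and 50.8% of all Ccl1 UMIs, and cells with both coreceptors held 11.8% and 21.8%. The CD4 gate also had more Xcl1 in CPM, 88.7 against 32.6 in CD8-gate cells on day +7 (2.72-fold). On day +14 it was 245 against 112 CPM (2.18-fold). The day +7 difference rested on few cells, as 3 CD4-gate cells held 303 of the gate's 428 Xcl1 UMIs. In thinned cells the day +7 shares with Xcl1 were alike, 3.06% in the CD4 gate and 2.91% in the CD8 gate. On day +14, 2 CD4-gate cells held 504 of 1236 Xcl1 UMIs, and the shares were 17.6% and 10.5%. Ccl5 was higher in CD8-gate cells, 2521 against 819 CPM on day +7 (3.08-fold) and 6290 against 4492 CPM on day +14 (1.40-fold).

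Ccl3 and Ccl4, which are encoded side by side, had nearly the same level in both gates. For Ccl3 the CD8 gate had 95.04 CPM and the CD4 gate 91.8 CPM on day +7, a log2 ratio of 0.05 with an interval of −0.09 to 0.19 that includes 0. On day +14 they had 285 and 243 CPM, a log2 ratio of 0.23 (0.15 to 0.32). For Ccl4 the log2 ratio of the CD8 over the CD4 gate was 0.24 (0.15 to 0.33) on day +7 and 0.20 (0.14 to 0.27) on day +14. The share of cells was less alike than the level. At 4000 UMIs per cell, Ccl3 was found in 17.1% of CD8-gate and 11.8% of CD4-gate cells on day +7, and in 33.9% and 17.6% on day +14.

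Between days, the direction was the same in both gates for all 5 genes. Ccl5 had a log2 ratio of 2.45 in the CD4 gate (2.41 to 2.504) and 1.32 in the CD8 gate (1.31 to 1.33). Among the UMIs of the 5 genes, Ccl5 made up 49.6% in CD4-gate cells on day +7 and 80.7% on day +14, whereas in CD8-gate cells it made up 86.7% and 87.9%. Ccl3 had log2 ratios of 1.58 (CD8) and 1.40 (CD4), Ccl4 of 0.92 and 0.96, Xcl1 of 1.78 and 1.46, and Ccl1 of −1.12 and −1.27. Ccl4 UMIs per Ccl3 UMI were alike in the gates on a given day, 2.59 in the CD8 gate and 2.27 in the CD4 gate on day +7, then 1.64 and 1.67 on day +14. In CD8-gate cells alone, 3.19% of 6831 genes were past a 2-fold ratio, 1.82% upward and 1.38% downward. Ccl3, Ccl5 and Xcl1 were past it upward there, Ccl4 was not, and Ccl1 was below the limit of 10 CPM. The share of CD4-gate cells also differed between days, and the directions over all cells were those within each gate.

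Ccl1 rested on very few cells. On day +7, 232 of 7179 cells (3.23%) had a Ccl1 UMI, with a median of 2 UMIs in those cells, a 90th percentile of 32.5 and a highest cell of 401 UMIs. On day +14, 160 of 7794 cells (2.05%) had one, again with a median of 2, a 90th percentile of 31.1 and a highest cell of 242 UMIs. These shares are at unequal depth, and at 4000 UMIs per cell they were nearly alike, 1.62% (interval 1.34 to 1.94) and 1.52% (1.25 to 1.84). The 1% of cells with most Ccl1 held 92.9% and 94.8% of its UMIs. Of the 10 cells with most Ccl1 on day +7, 8 were in the CD4 gate and held 46.0% of all Ccl1 UMIs, and on day +14 the CD4 gate held 7 of 10 and 39.8%. The highest day +14 cell gave 3.22% of its own UMIs to Ccl1, with 0 UMIs of Ccl3, Ccl4 and Xcl1 and 1 of Ccl5. The highest day +7 cell had 99 UMIs of Xcl1, 36 of Ccl4, 8 of Ccl3, 0 of Ccl5 and 1 of Foxp3, the lineage factor of regulatory T cells.

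Foxp3-positive CD4-gate cells were rare, 19 on day +7 and 14 on day +14. On day +7 they held 578 Ccl1 UMIs (2928 CPM), all from 3 cells, and on day +14 they held 0, which allows up to 32.9 CPM. Xcl1 had 99 UMIs in them on day +7, from 1 cell, and 0 on day +14. Without the Foxp3-positive cells, Ccl1 in the CD4 gate was at 337 CPM on day +7 and 187 CPM on day +14, a log2 ratio of −0.85 (−0.97 to −0.73). The counting intervals do not cover how much a total moves when its UMIs come from so few cells.

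Xcl1 was found in more cells on day +14. A Xcl1 UMI was found in 393 cells (5.47%) on day +7 and in 1339 cells (17.2%) on day +14, and the 1% of cells with most of it held 82.0% of its UMIs on day +7 and 53.6% on day +14. Its median in positive cells was 1 UMI and then 2 UMIs, with highest cells of 371 and 405 UMIs. In the CD4 gate, thinned to 4000 UMIs, the share went from 3.06% (interval 1.68 to 5.09) to 17.6% (14.4 to 21.2), and in the CD8 gate from 2.91% (2.495 to 3.38) to 10.5% (9.70 to 11.3). Thinning left out 14 of 471 CD4-gate cells on day +7 but 200 of 705 on day +14, so these CD4-gate shares compare unlike parts of the gate. Ccl5 lay at the other end. It was found in 76.8% of cells on day +7 and 96.0% on day +14, with medians of 17 and 47 UMIs in positive cells, and the smallest set of cells holding 50% of its UMIs was 10.3% and 17.6% of all cells. For Ccl3 the share was 25.7% and 44.1%, and for Ccl4 37.4% and 49.2%, with a median of 2 UMIs for both genes on both days and highest cells between 292 and 520 UMIs.

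**Figure D2:**
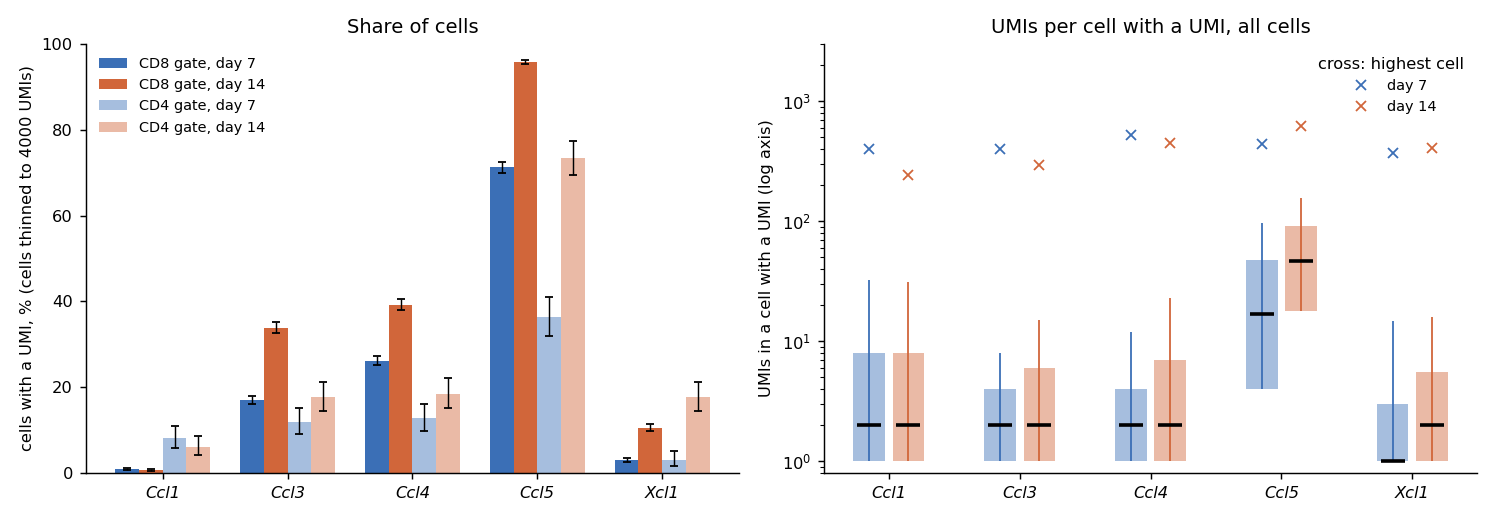
Left, share of CD8-gate and CD4-gate cells with a UMI of each chemokine on each day, at 4000 UMIs per cell, with Clopper-Pearson intervals. Right, UMIs per cell with a UMI over all kept cells (log axis), with boxes from the lower to the upper quartile, a black line at the median, a thin line up to the 90th percentile and a cross at the highest cell. Ccl5 reached 95.9% of CD8-gate cells on day +14 and its median is 47 UMIs, while the other 4 genes have medians of 1 or 2 UMIs and highest cells above 200 UMIs.

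Free RNA gives UMIs to cells that do not transcribe a gene, so the shares were set beside those in cells of other lineages thinned to the same 4000 UMIs. In 118 erythroid-gate cells of day +7, whose unthinned median was 37549 UMIs against 9237 in the CD8 gate, Ccl5 was found in 23.7%, Ccl4 in 5.93%, Ccl3 in 5.08%, Xcl1 in 0.847% and Ccl1 in 0 cells, which allows up to 2.54%. CD8-gate cells of that day were at 71.2%, 26.2%, 17.1%, 2.91% and 0.937%. The Ccl1 share of the CD8 gate is therefore within what the erythroid cells allow, and the Xcl1 share of the CD8 gate on day +7 lies within the erythroid interval of 0.0215% to 4.63%. On day +14 too few erythroid cells remained (11), but 64 granulocyte-gate cells had Ccl5 in 32 cells, Ccl3 and Ccl4 in 4.69% each, Ccl1 in 1.56% and Xcl1 in 0 cells, which allows up to 4.69%. CD8-gate cells of day +14 were at 95.9% for Ccl5, 39.2% for Ccl4, 33.9% for Ccl3, 10.5% for Xcl1 and 0.643% for Ccl1, of which the Ccl1 share is not above the granulocyte value. In CD4-gate cells Ccl5 was found in 36.3% on day +7 and 73.5% on day +14, nearer to the erythroid and granulocyte shares than in the CD8 gate. How much of the CD4-gate Ccl5 came from free RNA was not tested. Macrophage-gate cells were close to the CD8 gate in Ccl3 (19.8% and 37.8%) and Ccl5 (69.8% and 95.6%). Their Ccl4 share was close on day +7 (24.6%) and higher than in the CD8 gate on day +14 (56.7% against 39.2%). Macrophage-gate cells also held T cell list genes at 4868 and 7090 CPM. The erythroid-gate cells of day +7 held these genes at 1692 CPM and the granulocyte-gate cells of day +14 at 2113 CPM. Whether the chemokine UMIs in the 3 gates came from free RNA or from T cells in the same droplet was not tested.

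Cycling cells had lower chemokine levels in CPM than non-cycling cells, in both gates and on both days, although for Ccl3 and some other values the order turned when UMIs were counted per cell. Cycling was defined by UMIs of at least 3 of 10 genes (Mki67, Top2a, Birc5, Cdk1, Ccnb1, Aurkb, Nusap1, Tyms, Rrm2, Pclaf) at 4000 UMIs per cell. In the CD8 gate this gave 2959 cycling and 2807 non-cycling cells on day +7, and 3177 and 2270 on day +14. Ccl5 was at 1252 CPM in cycling and 5095 CPM in non-cycling CD8-gate cells on day +7, 4.07-fold lower, and at 4035 and 10966 CPM on day +14, 2.72-fold lower. Over 10 draws of the thinning the log2 ratio stayed between −2.05 and −1.97 on day +7 and between −1.47 and −1.40 on day +14. Ccl4 was at 177 against 390 CPM on day +7 and 406 against 621 CPM on day +14. Ccl3 differed less, 80.9 against 125 CPM and 255 against 368 CPM, and Xcl1 was at 18.5 against 62.2 CPM and 99.2 against 156 CPM. For Ccl1 the CD8-gate levels were 9.45 against 18.1 CPM and 2.32 against 13.3 CPM.

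The size of the difference depended on the scale, because cycling cells held more RNA molecules. Their median was 13577 UMIs against 6999 in non-cycling CD8-gate cells on day +7, and 12778 against 6163 on day +14. Counted as mean UMIs per cell rather than as CPM, Ccl5 was still lower in cycling CD8-gate cells, 19.5 against 39.9 on day +7 and 60.2 against 80.1 on day +14. Ccl3 turned to the other side, 1.26 against 0.978 UMIs per cell on day +7 and 3.801 against 2.69 on day +14, and so did Ccl4 on day +14 (6.05 against 4.54), Xcl1 on day +14 (1.48 against 1.14) and, by a margin of 0.147 against 0.141, Ccl1 on day +7. At an equal depth of 4000 UMIs, the share of CD8-gate cells with a UMI was lower in cycling cells for each of Ccl3, Ccl4, Ccl5 and Xcl1, for example 20.7% against 32.0% for Ccl4 on day +7 and 34.1% against 46.3% on day +14. In the CD4 gate, cycling cells were lower in all 5 genes in CPM, and also per cell except for Xcl1 on day +7 (0.955 against 0.925 UMIs), with Ccl4 at 88.4 against 356 CPM on day +7 and 113 against 751 CPM on day +14.

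**Figure D3:**
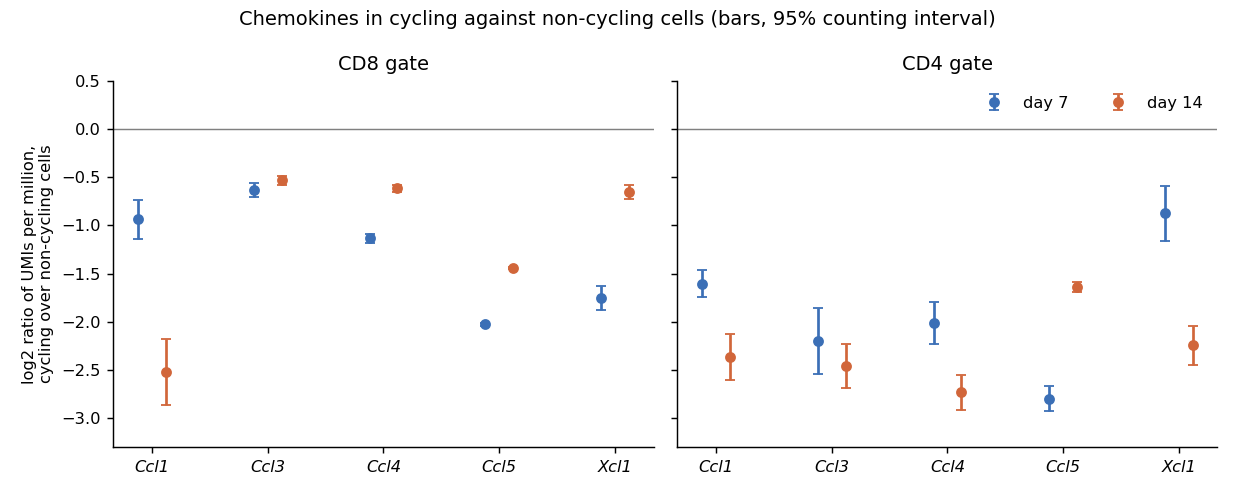
Log2 ratio of the CPM in cycling over non-cycling cells for each chemokine, in the CD8 gate (left) and CD4 gate (right), with 95% counting intervals, day +7 in blue and day +14 in orange. All 20 points lie below 0 on this scale, though Ccl3 was higher in cycling CD8-gate cells when counted as UMIs per cell, and Ccl5 in the CD8 gate is at −2.02 on day +7 and −1.44 on day +14.

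The higher day +14 levels held within both cycling classes. In cycling CD8-gate cells the log2 ratio of day +14 over day +7 was 1.69 for Ccl5, 1.66 for Ccl3, 1.19 for Ccl4 and 2.42 for Xcl1, and in non-cycling cells it was 1.11, 1.56, 0.67 and 1.33. Ccl1 was lower on day +14 in both, at −2.03 in cycling and −0.44 in non-cycling CD8-gate cells.

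The levels of Ccl3, Ccl4 and Xcl1 were ordered by the number of early activation genes found in a cell, and Ccl5 varied far less. CD8-gate cells at 4000 UMIs were divided by how many of Nr4a1, Nr4a2, Nr4a3, Egr1, Egr2 and Egr3, transcription factor genes induced within hours of antigen recognition, had a UMI. Cells with none were 81.3% of the gate on day +7 and 67.0% on day +14. On day +14, Ccl4 was at 240 CPM in the 3650 cells with none, 632 CPM in the 1472 cells with 1, 1946 CPM in the 247 cells with 2 and 6260 CPM in the 78 cells with 3 or more. Ccl3 had 158, 394, 1157 and 2606 CPM in the same order, and Xcl1 had 61.6, 114, 362 and 872 CPM. Each level was higher than the one before it.

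Day +7 had the same order with fewer cells: 4686 cells with none, 957 with 1, 104 with 2 and only 19 with 3 or more. Ccl4 was at 152, 456, 3053 and 7868 CPM, Ccl3 at 67.6, 184, 488 and 1697 CPM, and Xcl1 at 16.9, 95.9, 108 and 263 CPM. The step of Xcl1 from 1 to 2 genes lay within counting error, with overlapping intervals of 86.3 to 106 and 78.9 to 145 CPM. The log2 ratio of 3 or more genes over none was 5.70 for Ccl4, 4.65 for Ccl3 and 3.96 for Xcl1 on day +7, and 4.70, 4.04 and 3.82 on day +14. Over 10 draws of the thinning the ranges were 5.55 to 6.47 for Ccl4, 4.46 to 5.04 for Ccl3 and 3.02 to 4.80 for Xcl1 on day +7, with 11 to 24 cells in the highest class. On day +14 they were 4.64 to 4.95, 3.92 to 4.29 and 3.20 to 4.27, with 76 to 90 cells. For 1 gene over none the day +7 ranges were 1.01 to 1.90 for Ccl4, 1.15 to 1.80 for Ccl3 and 1.13 to 3.30 for Xcl1. On day +14 they were 1.40 to 1.64, 1.31 to 1.61 and 0.57 to 1.30. The steps from 1 to 2 and from 2 to 3 or more genes were not repeated over draws.

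Ccl5 differed little between the classes, at 3736, 3904, 5601 and 5224 CPM on day +7 and 7895, 9174, 8196 and 7904 CPM on day +14. Its log2 ratio of 3 or more genes over none was 0.48 and 0.00, with draws from −0.12 to 0.90 and from −0.13 to 0.34. Ccl1 had few UMIs in the class with 3 or more genes, 8 on day +7 and 2 on day +14. Its log2 ratio of 3 or more genes over none was 4.20 on day +7, with draws from 2.74 to 5.20. On day +14 the Ccl1 ratio was 0.55 and not stable, with draws from −0.84 to 1.88. Within the classes, Ccl3 was higher on day +14 throughout (log2 ratios from 0.62 to 1.25). Ccl4 was higher on day +14 among cells with none (0.67) or 1 (0.47) of the genes and lower among those with 2 (−0.65) or 3 or more (−0.33). These last 2 classes held only 104 and 19 cells on day +7. The ratios between days were not repeated over draws, while the day +7 Ccl4 ratio of 3 or more genes over none ranged from 5.55 to 6.47. The direction of Ccl4 in these 2 classes is therefore uncertain.

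**Figure D4:**
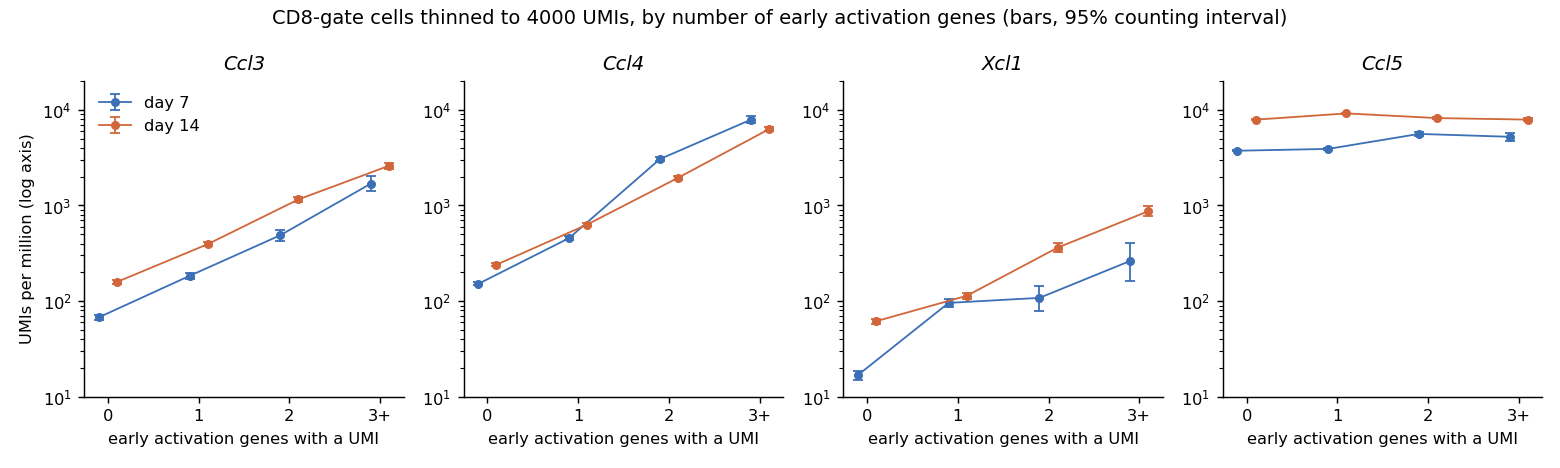
Level in CPM (log axis) of Ccl3, Ccl4, Xcl1 and Ccl5 in CD8-gate cells thinned to 4000 UMIs, by the number of 6 early activation genes with a UMI, with 95% counting intervals, day +7 in blue and day +14 in orange. Ccl4 climbs from 240 to 6260 CPM on day +14 while Ccl5 lies between 7895 and 9174 CPM. The rightmost day +7 points rest on 19 cells.

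On day +14, Xcl1 parted from Ccl3, Ccl4 and Ccl5 in cells with Tcf7, which encodes TCF1, a factor of naive, memory and stem-like T cells. CD8-gate cells with a Tcf7 UMI (252 cells at 4000 UMIs) had Xcl1 at 307 CPM, against 91.0 CPM in the 5195 cells without, and a Xcl1 UMI was found in 33.3% against 9.39% of them. The same cells had less Ccl3 (82.3 against 313 CPM), Ccl4 (152 against 527 CPM) and Ccl5 (4301 against 8446 CPM). Over 10 draws the log2 ratio with over without Tcf7 was 1.52 to 1.99 for Xcl1, −2.23 to −1.58 for Ccl3, −2.15 to −1.66 for Ccl4 and −1.18 to −0.97 for Ccl5. On day +7 there were 147 cells with Tcf7, and Xcl1 was at 79.9 against 31.2 CPM, with draws from 0.36 to 1.36. Ccl3 was at 68.0 against 101 CPM on that day (draws from −2.14 to −0.57) and Ccl5 at 3287 against 3816 CPM (−0.60 to −0.22). Ccl4 was at 264 against 280 CPM, with draws from −2.29 to 0.15 that include 0. Of the 10 draws, the one giving these levels had the smallest difference for Ccl3 and Ccl5 and the largest for Xcl1. The difference in Ccl5 was smaller on day +7 in all draws. For Ccl3 and Ccl4 the ranges of the days overlapped, so a smaller difference on day +7 was not shown. Cycling cells made up 34.5% of the Tcf7-positive and 59.5% of the other CD8-gate cells on day +14, and the part of cycling in these differences was not tested.

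Gzma, the granzyme A gene, went with Ccl5 and against Xcl1 on both days. CD8-gate cells with a Gzma UMI had more Ccl5 than those without, 4130 against 2331 CPM on day +7 and 11080 against 7634 CPM on day +14 (draws from 0.75 to 0.83 and from 0.51 to 0.57 on the log2 scale). They had less Xcl1, 29.4 against 46.3 CPM and 51.7 against 112 CPM (draws from −0.74 to −0.25 and from −1.37 to −0.76). Ccl3 changed side between days, and Ccl4 had a stable side on day +14 only. Ccl3 was at 94.3 CPM with and 125 CPM without Gzma on day +7 and at 386 and 284 CPM on day +14 (draws from −0.77 to −0.40 and from 0.30 to 0.45). Ccl4 was at 278 and 290 CPM on day +7, with draws on both sides of 0 (−0.46 to 0.02), and at 655 and 478 CPM on day +14 (0.30 to 0.51). Gzma-positive cells were 81.8% of the gate on day +7 and 18.0% on day +14. Cells with a UMI of Tox, a factor induced by sustained antigen signaling, had more Ccl3, Ccl4 and Ccl5 on both days, with log2 ratios between 0.35 and 0.78 (between 0.10 and 0.95 over the draws).

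Ccl3 and Ccl4 had the highest correlation of the 10 pairs over CD8-gate cells on both days, although more cells held Ccl5 beside either of them, since most cells had Ccl5. On day +7, 55.6% of CD8-gate cells with Ccl3 also had Ccl4, against 20.2% of those without, and on day +14 the shares were 67.5% and 24.7%. Their Pearson correlation over CD8-gate cells, of ln(1 + UMIs per 10000), was 0.50 on day +7 (5766 cells) and 0.65 on day +14 (5447 cells). Cells share a library and these values carry no test. In CD4-gate cells 61.1% and 59.6% of the cells with Ccl3 had Ccl4, against 6.20% and 9.62% without. Ccl5 had lower correlations with Ccl4 (0.23 and 0.26) and Ccl3 (0.15 and 0.24), and with Xcl1 the coefficient was −0.02 on day +7 and −0.18 on day +14. On day +14, a Xcl1 UMI was found in 9.84% of CD8-gate cells with Ccl5 and in 25.7% of those without.

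The few CD8-gate cells with Ccl1 often had Xcl1. On day +7 it was found in 25 of 54 (46.3%) against 2.503% of the other cells, and on day +14 in 12 of 35 (34.3%) against 10.4%. In the CD4 gate Xcl1 was found in 7 of 37 Ccl1-positive cells (18.9%, against 1.67%) on day +7 and in 13 of 31 (41.9%, against 16.0%) on day +14. Ccl5 was less frequent beside Ccl1 on day +7, in 18.9% of the Ccl1-positive and 37.9% of the other CD4-gate cells, while on day +14 it was found in 74.2% and 73.4%.

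**Figure D5:**
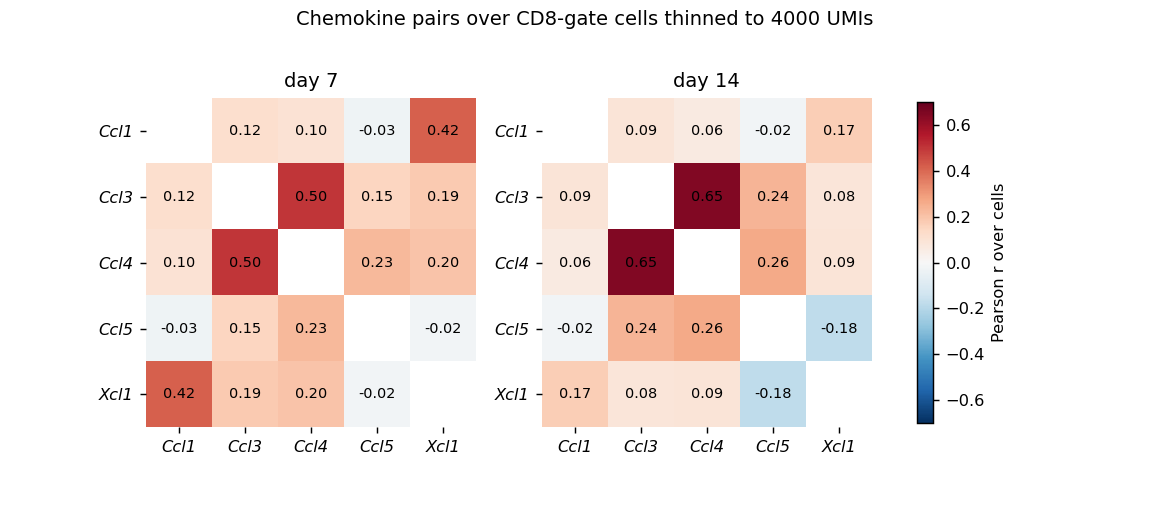
Pearson correlation of each pair of chemokines over CD8-gate cells thinned to 4000 UMIs, on day +7 (left) and day +14 (right), from blue (negative) to red (positive). The Ccl3 and Ccl4 square is the darkest on both days, at 0.50 and 0.65, and the Ccl5 and Xcl1 square is the lowest on day +14, at −0.18.

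More of the genes were found per cell on day +14. CD8-gate cells with none of the 5 at 4000 UMIs were 21.8% on day +7 and 2.497% on day +14, and those with 3 of the 5 were 8.22% and 22.2%. In the CD4 gate, cells with none were 50.8% and 17.6%. All 5 were found in 9 CD8-gate cells on day +7 and 6 on day +14. Ccl5 alone was the commonest pattern in the CD8 gate on both days, with 42.8% and 42.0% of cells, and Ccl3, Ccl4 and Ccl5 together went from 7.54% to 19.7%.

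Other genes were ranked by their mean correlation with each chemokine over CD8-gate cells of the 2 days, among 9075 genes found in at least 1% of cells. After Ccl4, Ccl3 was closest to Ifng (0.24 and 0.32), the gene of interferon-γ, then to Nr4a2, Ccl5 and Rgs16, a regulator of G protein signaling. Ccl4 was closest to Ccl3, Ifng (0.24 and 0.34), Ccl5, Nr4a2 (0.16 and 0.31) and Rgs16. Ccl5 was closest to Nkg7 (0.30 and 0.51), a cytotoxic granule membrane gene, and Hcst (0.35 and 0.40), the adaptor DAP10, followed by the abundant genes Tpt1, Fau and Malat1. Xcl1 had weak leading values, with Crtam (0.08 and 0.28), Rgs16, Ccl4, Bcl2a1b and Nrgn. For Ccl1 the 5 were Xcl1 (0.42 and 0.17), Csf2, Tnfrsf4, Ccl3 and Rgs16, the last 4 with coefficients of at most 0.20.

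The cytokine gene Ifng was higher in CD8-gate cells with Ccl3 but differed little between days. CD8-gate cells with Ccl3 had Ifng at 363 CPM against 155 CPM without on day +7 and 279 against 115 CPM on day +14, yet over all cells Ifng was at 165 CPM on day +7 and 157 CPM on day +14. CD4-gate cells with Ccl1 had Ifng at 304 against 143 CPM on day +7 (37 cells with Ccl1) and 702 against 141 CPM on day +14 (31 cells). On day +14 they also had Csf2, the GM-CSF gene, at 169 against 6.33 CPM, from 21 UMIs, and on both days more Il2ra, the IL-2 receptor α chain, at 169 against 51.2 CPM and 121 against 26.9 CPM.

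Several receptors of these chemokines were scarce in the same cells. Ccr1, Ccr3, Ccr4, Ccr8, Xcr1 and Ackr2, a scavenger receptor, each averaged less than 10 CPM over the libraries. Of 10 other T cell chemokine receptors, 5 had at least 10 CPM. Cxcr4, the receptor of the bone marrow chemokine Cxcl12, was past the limit upward (16.2 to 42.2 CPM), Ccr2, the receptor of monocyte-attracting chemokines, was past it downward (72.6 to 16.5 CPM), beside 1.85% and 1.26% of all genes, and Cxcr3, Cxcr6 and Cx3cr1 were within it.

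Other chemokine genes had few UMIs in these cells. Of 30 measured, 0 averaged 10 CPM or more, 11 had no UMI on day +7 and 9 had none on day +14, and together they came to 47.1 and 42.7 CPM. Ccl6 and Ccl24, known from myeloid cells, were the highest on day +7 at 12.6 and 10.1 CPM, and were at 6.84 and 1.68 CPM on day +14. Ccl1, Ccl3, Ccl4, Ccl5 and Xcl1 came to 2612 CPM summed on day +7 and 6829 CPM on day +14.

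None of the cytotoxic granule genes was past a 2-fold ratio upward. Of 7, Gzma (3318 to 225 CPM), Gzmb (1368 to 487 CPM) and Gzmm (24.3 to 1.47 CPM) were past a 2-fold ratio downward, beside 1.26% of all genes tested, and Gzmk, Prf1, Nkg7 and Srgn were within it. The early activation list had 3 of 6 genes at 10 CPM or more, with Nr4a2 (34.6 to 102 CPM) and Egr1 (8.38 to 20.4 CPM) past the limit upward, beside 1.85% of all genes, and Nr4a1 within it. Under median-ratio scaling Egr1 was within the limit, at 0.98. Of 10 effector cytokines, Ifng and Fasl had at least 10 CPM and both were within the limit. Of 12 genes for factors known to act on chemokine transcription, among them Runx3, Klf13, Nfatc1, Rel and Prdm1, only Eomes, the T-box factor of effector and memory CD8 cells, was past it over all cells (18.8 to 86.1 CPM), upward, where 1.85% of all genes were. In CD8-gate cells Zeb2, a factor of terminal effectors, was also past it upward, as were 1.82% of all genes, at 11.2 CPM on day +7 and 26.3 CPM on day +14, and it was within the limit under median-ratio scaling (0.95). The median log2 ratio of these lists over the genes tested was −0.22 for granule genes, 1.19 for early activation, 0.21 for effector cytokines and 0.25 for the factors, beside 0.18 for all genes.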

How the data were processed

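Donor T cells were profiled by droplet scRNA-seq on the 10x Genomics platform in 2 libraries. The deposited matrices hold UMI counts per gene and barcode, which the authors made with Cell Ranger (version 6.1.2) on mm10 per the labels' processing notes and which carry no normalization. The study's further workflow used Seurat, and Scrublet for doublets. Here, barcodes with 500 to 7500 genes and at most 15% mitochondrial UMIs were kept (7179 of 7355 and 7794 of 8043), and rows that share a symbol were summed (3 listed symbols; 1 was not found). Scrublet in scanpy (1.11.5) set thresholds of 0.596 and 0.599, above the highest scores of 0.529 and 0.467, and so called 0 doublets in each library. The caller had not worked, and all barcodes stayed in. UMIs were summed over cells and divided by the total of the same cells (CPM). Shares and classes within gates used cells thinned to 4000 UMIs, leaving out 198 and 969 shallower cells. Of these, 14 and 200 were in the CD4 gate, which held 471 and 705 cells. PCR duplicates are collapsed by UMI, and intervals and limits (3 counts where a count is 0) cover counting error only. A ratio past 2-fold means log2(CPM + 1) beyond 1 in size, for genes averaging 10 CPM or more over both libraries. The 5 chemokines, the lists, gates and alternatives were chosen with earlier results of these data known, and 2 alternatives were added after the values were seen. Named besides the 5 were listed genes that reached 10 CPM in either library and the 5 genes most correlated with each chemokine. Csf2 and Il2ra beside Ccl1, and all other listed genes given by the presence of a chemokine, were chosen after their values were seen. Gene positions came from GENCODE M21. Computation used Python 3.11.15, numpy 2.4.6, scipy 1.17.1 and pandas 2.3.3, tested on simulated data.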

Additional observations from a re-analysis of the deposited data

How the results depend on the processing

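All 5 log2 ratios between days kept their sign under the 8 alternatives run. Against −0.98, 1.56, 0.95, 1.43 and 1.88 for Ccl1, Ccl3, Ccl4, Ccl5 and Xcl1 over all cells, scaling by the median ratio of genes gave −1.19, 1.35, 0.75, 1.22 and 1.68. Without the 1% of cells with most UMIs of the gene they were −1.44, 1.84, 1.39, 1.48 and 3.26. The mean over cells of CPM per cell gave −0.44 for Ccl1, 0.93 for Ccl4, 1.41 for Ccl5 and 1.82 for Xcl1. Thinning to 4000 UMIs gave −0.42 for Ccl1, 0.91 for Ccl4 and 1.16 for Ccl5, and leaving out the other lineages gave 0.90 for Ccl4 and 1.37 for Ccl5. The other values moved by less than their counting interval, those without shared barcodes included. Past a 2-fold ratio, 128 genes were higher on day +14 (403 with no filter on low values, 80 under median-ratio scaling) and 87 lower (252 with no filter, 124 under median-ratio scaling). The causes of these moves were not tested. Leaving out a replicate could not be done with 1 library per day. No paired analysis was possible because each day has 1 library and no test was made.

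The depth of 4000 UMIs per cell limits Ccl1 and Xcl1 most: the day +7 share of CD8-gate cells with Ccl1 lay within the limit of 2.54% set by 118 erythroid cells, while that of CD4-gate cells (8.10%) lay above it. Requiring 3 UMIs for a positive cell lowered every share, for example to 61.4% and 89.4% for Ccl5 and to 1.41% and 0.975% for Ccl1.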
